A study of Mus musculus with 12 samples.

Results

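The cytochrome P450 family was followed in whole mouse kidneys at postnatal day 3 (P3). Its members were the rows whose symbol is Cyp followed by a number, a lower-case subfamily letter or letters and a final number, which 94 of the 24062 gene symbols in the count files matched. Of these, 44 reached at least 10 counts in at least 3 of the 12 kidneys and were kept, 50 were not, and 26 of the 94 had no count in any kidney. *Cyp2a4* and *Cyp2t4*, whose third-highest kidneys held 10 and 11 counts, lay just inside that limit, and *Cyp26c1* and *Cyp2c69*, at 9 and 7 counts, lay just outside it. The pattern left out 21 other symbols that begin with Cyp, such as *Cyp51* and *Cyp4a12a*. It also left out P450 genes whose symbols do not begin with Cyp, such as *Tbxas1*.

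The kidneys formed 4 groups of 3, each from 2 litters. LIN28B Wt1 kidneys carried a doxycycline-inducible human *LIN28B* transgene (TRE-LIN28B) with *lox-STOP-lox-rtTA* and *Wt1-Cre*, so that LIN28B could be switched on in cells that had expressed *Wt1*, on a C57BL/6 background. In the study LIN28B was mainly induced by a short pulse of doxycycline before birth, with the drug given in the drinking water. The controls of these kidneys (LIN28B control) were littermates labelled WT on the same background. Littermates carried by the same dam would share a pulse given before birth, but the sources used here do not state the exposure of the controls. *Let-7* KO kidneys carried a constitutive deletion of *let-7a1*, *let-7d* and *let-7f1*, on a mixed CD1 and C57BL/6 background, and were set against WT littermates (*let-7* WT). LIN28B is an RNA-binding protein that blocks maturation of *let-7* microRNAs, and the study asked how this pair times the end of nephron formation.

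P450 enzymes are heme-containing oxygenases, most of them anchored in the endoplasmic reticulum and a smaller set in mitochondria, that insert an oxygen atom into fatty acids, sterols, vitamins and foreign compounds. In the kidney the best known roles are the hydroxylation of arachidonic acid by Cyp4a enzymes, its epoxidation by Cyp2c and Cyp2j enzymes, and the activation and breakdown of vitamin D by Cyp27b1 and Cyp24a1. Cyp26 enzymes break down retinoic acid. Much of this activity sits in the proximal tubule, a segment that matures around and after birth.

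Each library held between 39926235 and 61872736 counts, so that 3 counts corresponded to between 0.0485 and 0.0751 counts per 1000000 counts of a library (CPM), and all levels below are CPM after normalization of the 12 libraries together. The targeted genes could be read only in part. The mouse *Lin28b* row, which need not count the human transgene, held 232, 224 and 71 counts in LIN28B Wt1 kidneys and 0, 18 and 33 in their controls. The precursor rows of the deleted *let-7* genes were at 0 in all *let-7* KO kidneys. They were also at 0 in *let-7* WT replicate 1 and low elsewhere, so these rows do not tell that WT kidney from a KO kidney. By Y-linked genes each LIN28B group held 1 male and each *let-7* group 2. LIN28B control replicates 1 and 2 stood apart for fat genes: the summed level of 6 fat markers, led by *Adipoq*, *Ucp1*, *Plin1* and *Cidec*, was 58.5 and 69.6 CPM in them, 9.51 CPM in replicate 3 and from 0.583 to 11.7 CPM in the other 9 kidneys. Results that rest on those libraries are given with and without them.

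Compared per kilobase of exon (GENCODE M21, GRCm38, which named 43 of the 44 members), *Cyp2j5*, an arachidonic acid epoxygenase, had the highest mean level over the 12 kidneys, 96.4 CPM per kb. *Cyp4a10*, a fatty acid omega-hydroxylase, followed at 49.7 CPM per kb, then *Cyp2d26* at 43.1, *Cyp4a31* at 30.4, *Cyp2j6* at 14.8, *Cyp4a14* at 11.4 and *Cyp20a1* at 11.3 CPM per kb. The ranges over kidneys of neighbours in this order overlapped, from 48.5 to 141 CPM per kb for *Cyp2j5* and from 21.4 to 83.6 for *Cyp4a10*. These 7 were the members at 10 CPM per kb or more, and 20 of the 43 lay below 1 CPM per kb. *Cyp2c44*, listed as *Cyp2c23* in RefSeq and the Cyp2c member that was kept, ranged from 0 to 2.01 CPM and had no length under that symbol.

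**Figure D1:**
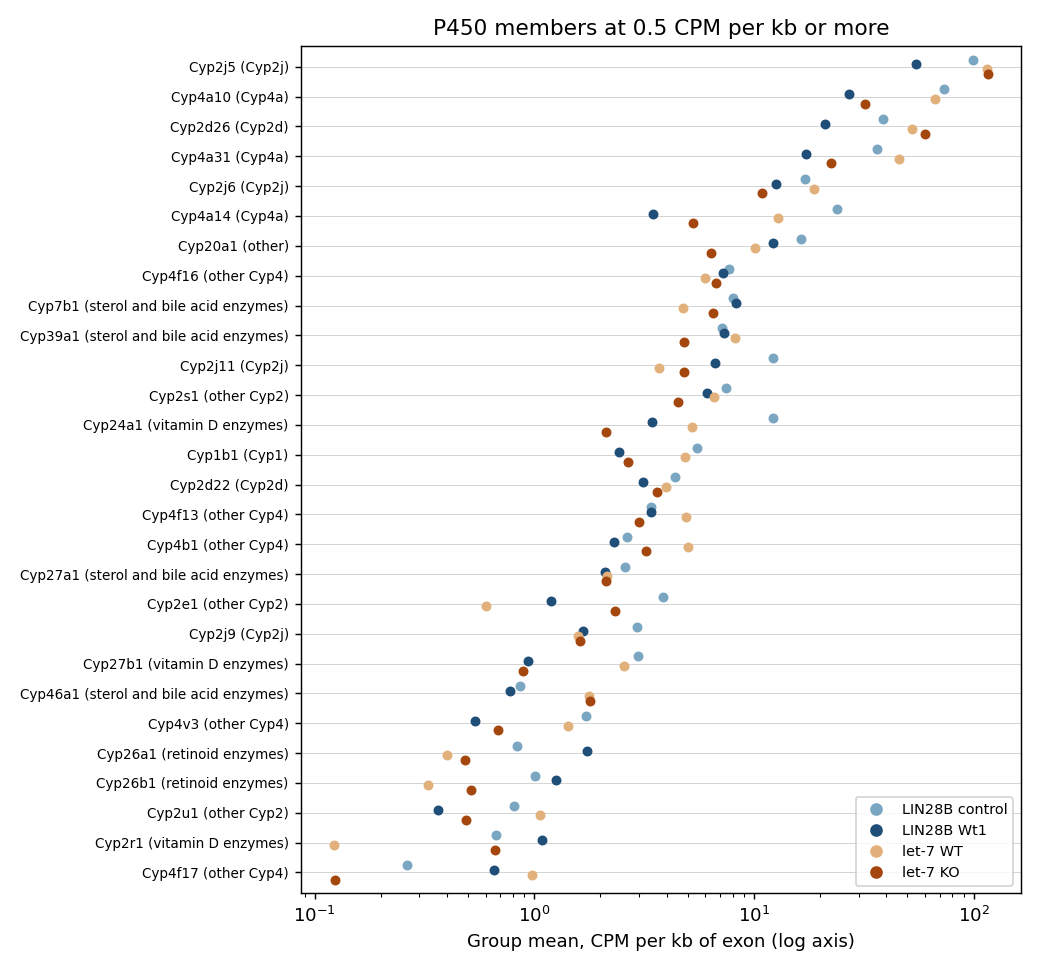
Group mean levels (CPM per kb of exon, log axis, 3 kidneys per point) of the 28 P450 members whose mean over all 12 kidneys was 0.5 CPM per kb or more, with the family of each in brackets. Cyp2j, Cyp4a and Cyp2d members head the order, and the dark points of both mutant groups lie left of both control groups for *Cyp4a10*, *Cyp4a14* and *Cyp4a31*.

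The most abundant members sit in gene clusters. On chromosome 4 of GRCm38, *Cyp2j11*, *Cyp2j13*, *Cyp2j5*, *Cyp2j6* and *Cyp2j9* lie between positions 96027534 and 96664154, and *Cyp4a14* (chr4:115486200-115496142, minus strand), *Cyp4a10* (chr4:115518264-115533649, plus strand), *Cyp4a31* (chr4:115563649-115579015, plus strand) and *Cyp4a32* (chr4:115600969-115621602, plus strand) lie next to each other. Of the 43 members with a position, 10 were on chromosome 4, and of the 9 members called in either model, 5 were. Those 5 all lie in these Cyp2j and Cyp4a clusters, so they are not separate observations. The share of all genes, tested or called, on that chromosome was not computed. Clustered copies share sequence: 29.8% of the 50-base words in *Cyp4a10* transcripts, 20.6% in *Cyp4a31* and 43.8% in *Cyp4a32* also occur in transcripts of another gene, against 0.235% in *Cyp4a14* and 0.174% in *Cyp2j5*. How reads shared between copies were counted is not stated, so the levels of *Cyp4a10*, *Cyp4a31* and *Cyp4a32*, their place in the order above and the split between them are uncertain. The 10 globin rows, another set of near-identical copies, held at most 7 counts in any kidney, while the red blood cell gene *Alas2* stood at 33.2 to 90.4 CPM.

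The bases before the start site are shown for 4 members that the comparisons below turn on, from the RefSeq promoter table (GRCm38.p6), which held 33 of the 44 members and 6 of the 10 called in any comparison. Each is the 250 bases before the annotated start, 5′ to 3′ on the gene's own strand, and capitals mark matches on either strand to GCGTG (the core of the aryl hydrocarbon receptor element), AGGTCA (the core of nuclear receptor elements), TATAAA (the TATA box) or CACGTG (the E-box), none of which overlapped another match.
Cyp1b1, chr17:79715062-79715311, minus strand: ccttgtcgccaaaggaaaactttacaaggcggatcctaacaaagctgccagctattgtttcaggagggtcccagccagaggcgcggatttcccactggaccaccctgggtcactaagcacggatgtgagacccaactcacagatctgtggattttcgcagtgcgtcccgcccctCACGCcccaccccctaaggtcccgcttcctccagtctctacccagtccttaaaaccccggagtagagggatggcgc
Cyp2j5, chr4:96664120-96664369, minus strand: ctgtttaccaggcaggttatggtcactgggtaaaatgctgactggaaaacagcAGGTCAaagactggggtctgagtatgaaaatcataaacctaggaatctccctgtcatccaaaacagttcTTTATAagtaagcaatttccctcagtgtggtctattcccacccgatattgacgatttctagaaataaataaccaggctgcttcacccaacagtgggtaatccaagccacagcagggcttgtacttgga
Cyp2j6, chr4:96553652-96553901, minus strand: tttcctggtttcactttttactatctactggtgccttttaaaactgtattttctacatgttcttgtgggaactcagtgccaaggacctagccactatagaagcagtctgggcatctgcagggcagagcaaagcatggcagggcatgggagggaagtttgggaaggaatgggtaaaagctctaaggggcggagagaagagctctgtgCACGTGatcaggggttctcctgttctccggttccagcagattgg
Cyp2e1, chr7:140763569-140763818, plus strand: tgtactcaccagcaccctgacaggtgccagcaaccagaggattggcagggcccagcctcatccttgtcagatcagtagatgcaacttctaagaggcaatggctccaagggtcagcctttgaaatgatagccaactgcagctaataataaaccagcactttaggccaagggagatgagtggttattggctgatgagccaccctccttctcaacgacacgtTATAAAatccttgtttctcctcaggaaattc
The *Cyp1b1* window held 1 GCGTG on the opposite strand 76 bases before the start, where 28.2% of all 32851 windows of this length hold the motif. *Cyp2j5* held AGGTCA 197 bases and TATAAA, on the opposite strand, 128 bases before its start, and *Cyp2e1* held TATAAA 31 bases before its start. *Cyp2j6* held CACGTG 44 bases before its start. Over all windows 14% held AGGTCA, 12.4% TATAAA and 6.02% CACGTG, and of the 35 windows of kept members 10 held GCGTG, 5 AGGTCA, 9 TATAAA and 2 CACGTG.

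In LIN28B Wt1 kidneys the 7 P450 genes called were all lower, led by the Cyp4a fatty acid hydroxylases and the vitamin D 24-hydroxylase *Cyp24a1*. Genes were called at an unadjusted p below 0.01, the threshold of the study, in edgeR's quasi-likelihood test, with Benjamini-Hochberg adjustment over all genes tested. Of 36 members tested 7 fell (19.4%), where 4.08% of all 15793 genes tested fell, and no member rose, where 3.25% of all genes did. At an adjusted p below 0.05, 4 members were lower, against 0.766% of all genes. The median log2 fold change was -0.42 over the members tested and -0.02 over all genes. Below 0 lay 26 members, with 10 above, where 51.5% of all genes lay below 0. At an unadjusted p below 0.05, 13 members were lower and 0 higher, and DESeq2 called 10 lower and 0 higher at 0.01. Shares over all genes were not computed at these or the other alternative settings, here or below. Such counts therefore show only how the calls moved. With no filter on low counts 9 were lower and 1 higher, and without LIN28B Wt1 replicate 1 the counts were 5 and 1, the higher member being *Cyp11a1* in both. Without the 2 LIN28B controls with higher fat genes 3 members were called lower, *Cyp4a10*, *Cyp4a14* and *Cyp24a1*, and without control replicate 1 alone 4 were. The count filter removed the other 8 kept members in these 6 kidneys.

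In *let-7* KO kidneys *Cyp4a10*, *Cyp4a31*, *Cyp1b1* and *Cyp2j6* fell. They were 4 of 37 members tested (10.8%), where 1.63% of all 15500 genes tested fell, and no member rose, against 1.1% of all genes. No member passed an adjusted p of 0.05 in edgeR's test, which only 0.0194% of all genes, all lower, did. The median log2 fold change was -0.55 over the members and -0.02 over all genes, with 23 members below 0, 14 above and 7 not tested. Over all genes 52% lay below 0. At an unadjusted p below 0.05, 8 members were lower and 1 higher, and DESeq2 called 5 lower and 1 higher at 0.01 and 2, both lower, at an adjusted p below 0.05. The all-gene share was not computed for these counts either. The count called was 1 without WT replicate 1 or KO replicate 3, and 2 without WT replicate 3.

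The proximal tubule, where Cyp4a enzymes are known to be made, moved with these counts. Of 12 proximal tubule markers 9 fell in LIN28B Wt1 kidneys and 4 in *let-7* KO kidneys, with none higher, at median log2 fold changes of -1.17 and -0.39 and ranges from -2.71 to 0.04 and from -1.17 to 0.21. Their summed level was 2712 to 2838 CPM in LIN28B controls, 1269.7 to 1517 CPM in LIN28B Wt1, 3749 to 4502 CPM in *let-7* WT and 2961 to 3266 CPM in *let-7* KO kidneys, so that neither pair overlapped. In whole kidneys fewer cells of a type and less RNA per cell cannot be told apart. The summed level of *Cyp4a10*, *Cyp4a14* and *Cyp4a31* per 1000 CPM of proximal tubule markers, a ratio chosen after the values were seen, was 113, 109.7 and 109 in LIN28B controls and 56.8, 62.5 and 118 in LIN28B Wt1 kidneys, which overlap through LIN28B Wt1 replicate 3. It was 79.3, 70.0 and 65.4 in *let-7* WT and 48.3, 45.8 and 37.5 in *let-7* KO kidneys, which do not. All 6 nephron progenitor markers rose in LIN28B Wt1 and 1 of 6, *Gdnf*, in *let-7* KO kidneys. The part of any of these in the P450 results was not tested.

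**Figure D2:**
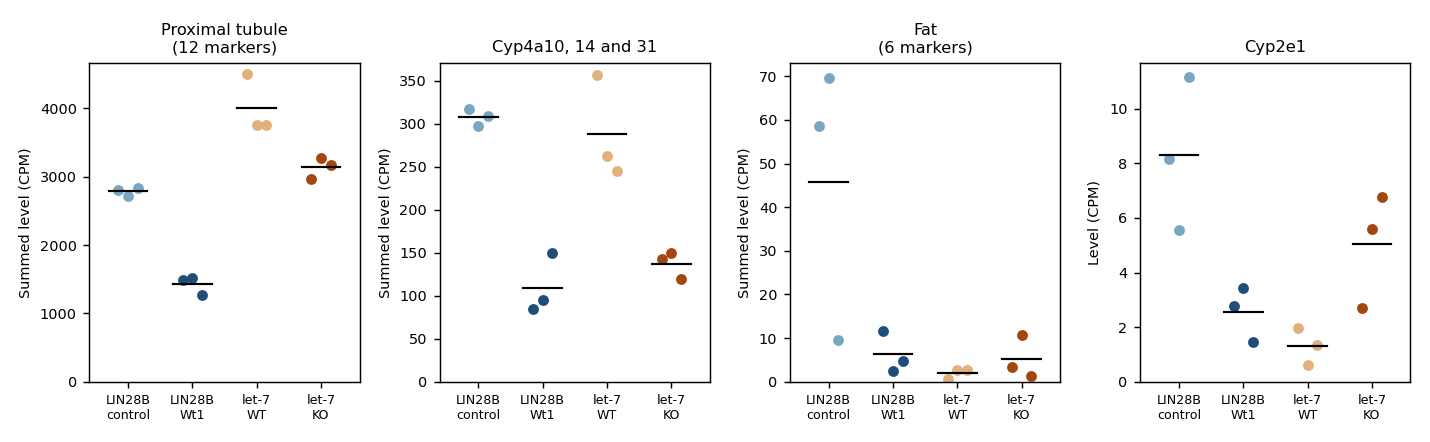
Summed level in CPM of 12 proximal tubule markers, of *Cyp4a10*, *Cyp4a14* and *Cyp4a31*, and of 6 fat markers, with the level of *Cyp2e1*, 1 point per kidney and a bar at each group mean, each axis starting at 0. Proximal tubule and Cyp4a sums are lower in both mutant groups than in their controls. *Cyp2e1* is highest in LIN28B control replicate 3 and next highest in replicate 1, which is 1 of the 2 LIN28B controls with high fat genes.

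**Figure D3:**
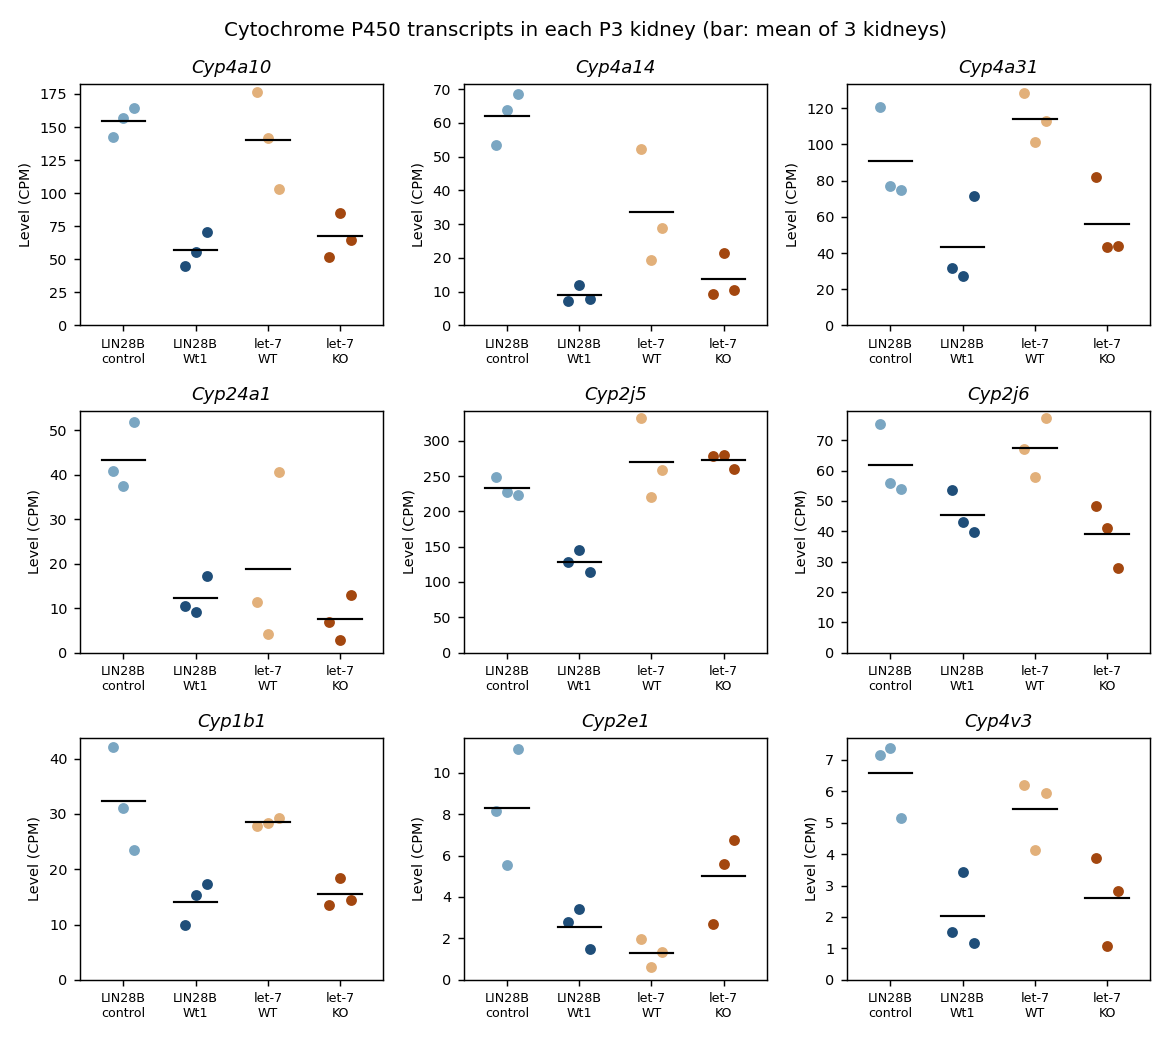
Level in CPM of the 9 P450 members called in either model, 1 point per kidney, 3 kidneys per group, with a bar at each group mean and each axis starting at 0. *Cyp4a10*, *Cyp1b1*, *Cyp4a31*, *Cyp2j6* and *Cyp4v3* are lower in both mutant groups without overlap with their own controls. Of these, *Cyp4a10* and *Cyp1b1* were called in both models. *Cyp2j5* is lower in LIN28B Wt1 kidneys alone among the 4 groups, and *Cyp2e1* lies in opposite order in the 2 models.

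*Cyp4a14* showed the largest fall of any member tested in LIN28B Wt1 kidneys. Its level was 53.4, 63.9 and 68.6 CPM in controls and 7.21, 12 and 7.82 CPM in LIN28B Wt1 kidneys, and 52.2, 19.4 and 29 CPM in *let-7* WT and 9.23, 21.3 and 10.6 CPM in *let-7* KO kidneys. The LIN28B groups were far apart, whereas the *let-7* groups overlapped, since the highest KO kidney lay above the lowest WT kidney. The fall was 6.85-fold in LIN28B Wt1 kidneys (log2 fold change -2.78 ± 0.24 SE, adjusted p = 9.77e-04), from 61.9 ± 7.77 CPM (SD, n = 3) to 9.02 CPM. In *let-7* KO kidneys the difference missed the threshold (log2 fold change -1.29 ± 0.42 SE, adjusted p = 0.369). The 2 models were not called different for this gene (difference of -1.50 ± 0.53 SE on the log2 scale, adjusted p = 0.671). With no filter both were called, at adjusted p-values of 0.346 in *let-7* KO kidneys and 0.682 for the difference in edgeR's test.

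*Cyp4a10*, which encodes an omega-hydroxylase of fatty acids that peroxisome proliferator-activated receptor alpha is known to induce in liver and kidney, fell in both models. Its level was 143, 156 and 165 CPM in LIN28B controls against 45, 55.5 and 70.4 CPM in LIN28B Wt1 kidneys, and 176, 142 and 103 CPM in *let-7* WT against 52.1, 84.8 and 64.8 CPM in *let-7* KO kidneys. Every mutant kidney was below every control of its model. The fall was 2.70-fold in LIN28B Wt1 kidneys (log2 fold change -1.44 ± 0.18 SE, adjusted p = 0.00804) and 2.10-fold in *let-7* KO kidneys (log2 fold change -1.07 ± 0.24 SE, adjusted p = 0.345).

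*Cyp4a31*, a close copy of *Cyp4a10*, was called in the *let-7* model, and the difference between the models was not called (difference of -0.05 ± 0.47 SE). It stood at 129, 101 and 113 CPM in *let-7* WT and 81.9, 43.3 and 43.8 CPM in *let-7* KO kidneys, which did not overlap. The fall was 2.03-fold (log2 fold change -1.02 ± 0.26 SE, adjusted p = 0.362), a call that was lost without WT replicate 1, KO replicate 2 or KO replicate 3. In the LIN28B model it stood at 121, 77.2 and 75.1 CPM in controls and 32, 27.2 and 71.3 CPM in LIN28B Wt1 kidneys, where replicate 3 came close to the controls (log2 fold change -1.06 ± 0.35 SE, adjusted p = 0.157). With litter as a block (log2 fold change of -1.19, adjusted p = 0.174) or no filter (-1.06, adjusted p = 0.145) it was called there too. *Cyp4a32* was at most 1.8 CPM in any kidney and at or near 0 in most.

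Of the vitamin D enzymes, *Cyp24a1*, the mitochondrial 24-hydroxylase that inactivates vitamin D, fell in LIN28B Wt1 kidneys. Its level was 40.8, 37.4 and 51.9 CPM in controls and 10.4, 9.16 and 17.1 CPM in LIN28B Wt1 kidneys, with no overlap. The fall was 3.53-fold (log2 fold change -1.82 ± 0.27 SE, adjusted p = 0.0178), and the call was lost when all 12 kidneys shared 1 fit. In the *let-7* model it was 11.3, 4.07 and 40.7 CPM in WT and 6.98, 2.76 and 13 CPM in KO kidneys. WT replicate 3, from the other litter than replicates 1 and 2, stood apart from them, and KO replicate 3, with the same litter number, was the highest KO kidney. The WT mean of 18.7 CPM thus rested on 1 kidney, and the difference was not called (log2 fold change -1.31 ± 0.76 SE, adjusted p = 0.562).

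*Cyp27b1*, the 1-alpha-hydroxylase that makes active vitamin D, was low throughout, at 7.86, 4.12 and 11 CPM in LIN28B controls, 2.12, 0.784 and 4.31 CPM in LIN28B Wt1, 6.01, 3.27 and 10.5 CPM in *let-7* WT and 3.86, 0.92 and 2.09 CPM in *let-7* KO kidneys. The highest mutant kidney of each model overlapped the lowest control. It missed the threshold with LIN28B (log2 fold change -1.66 ± 0.63 SE, adjusted p = 0.203), though not with litter as a block (-1.80, adjusted p = 0.17). It also missed it in *let-7* KO kidneys (log2 fold change -1.53 ± 0.67 SE, adjusted p = 0.448). *Cyp2r1*, a vitamin D 25-hydroxylase, ranged from 0 to 3.31 CPM and was not called in either model. Of the 9 other genes fixed for vitamin D and mineral handling, 3 fell in LIN28B Wt1 kidneys, 2 fell in *let-7* KO kidneys and none rose. The vitamin D receptor *Vdr* fell in both, with log2 fold changes of -1.02 with LIN28B (adjusted p = 0.0305) and -0.79 in *let-7* KO kidneys (adjusted p = 0.362). So did the calcium-binding protein *Calb1*, with adjusted p-values of 0.0573 and 0.362 for log2 fold changes of -0.73 and -0.88. *Kl*, the klotho co-receptor for the phosphate hormone FGF23, fell in LIN28B Wt1 kidneys (-0.78, adjusted p = 0.063).

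Among the Cyp2j epoxygenases 1 of 5 members, *Cyp2j5*, was called as different between the models. It stood at 249, 227 and 224 CPM in LIN28B controls and 128, 145 and 114 CPM in LIN28B Wt1 kidneys, and at 331, 220.4 and 259 CPM in *let-7* WT and 278, 279.6 and 259 CPM in *let-7* KO kidneys. The LIN28B groups did not overlap and the *let-7* KO kidneys lay within the range of their controls. *Cyp2j5* fell 1.81-fold in LIN28B Wt1 kidneys (log2 fold change -0.85 ± 0.14 SE, adjusted p = 0.0222) and was not called in *let-7* KO kidneys (log2 fold change 0.01 ± 0.18 SE, adjusted p = 0.996). The difference between the models was -0.88 ± 0.22 SE on the log2 scale, which was called (adjusted p = 0.404). Without the 2 LIN28B controls with higher fat genes neither the fall (log2 fold change of -0.79) nor the difference (-0.81) was called.

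*Cyp2j6*, a neighbour of *Cyp2j5*, was at 67, 57.9 and 77.3 CPM in *let-7* WT and 48.4, 41.3 and 27.8 CPM in *let-7* KO kidneys, without overlap. It fell 1.73-fold (log2 fold change -0.79 ± 0.24 SE, adjusted p = 0.362). With litter as a block the *Cyp2j6* log2 fold change was -0.81 and the gene was no longer called, nor was it without WT replicate 1 or 3 or KO replicate 2 or 3. In the LIN28B model it was at 75.5, 56 and 53.8 CPM in controls and 53.7, 43.1 and 39.7 CPM in LIN28B Wt1 kidneys, where the groups nearly touched (log2 fold change -0.44 ± 0.19 SE, adjusted p = 0.277, not called). The other 3 Cyp2j members kept were not called in either model.

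*Cyp1b1*, an extrahepatic P450 of stromal and vascular cells that hydroxylates estrogens and polycyclic hydrocarbons, fell in both models. It stood at 42.1, 31.2 and 23.5 CPM in LIN28B controls and 9.89, 15.3 and 17.3 CPM in LIN28B Wt1 kidneys, and at 27.8, 28.4 and 29.2 CPM in *let-7* WT and 13.6, 18.5 and 14.5 CPM in *let-7* KO kidneys. Neither pair of groups overlapped, and the LIN28B control value was highest in replicate 1 and lowest in replicate 3. The fall was 2.27-fold in LIN28B Wt1 (log2 fold change -1.19 ± 0.29 SE, adjusted p = 0.0771) and 1.84-fold in *let-7* KO kidneys (log2 fold change -0.88 ± 0.24 SE, adjusted p = 0.362). In LIN28B Wt1 kidneys the stromal markers *Pdgfra* and *Pdgfrb* fell beside it (log2 fold changes of -0.69 and -0.81), 2 of the 6 stromal markers. *Foxd1*, the marker of cortical stroma, lay the other way without being called (log2 fold change of 0.70, adjusted p = 0.199), with all 3 LIN28B Wt1 kidneys above all controls. None of the 6 was called in *let-7* KO kidneys. The summed stromal level ran from 1978 to 2415 CPM in LIN28B controls and from 1375 to 1971 CPM in LIN28B Wt1 kidneys, and its part in the *Cyp1b1* result was not tested. Without LIN28B control replicates 1 and 2, the kidneys with the higher fat genes, *Cyp1b1* was no longer called (log2 fold change of -0.72), nor was it without control replicate 1 alone. In the *let-7* model the call held in 1 of the 6 fits that leave out a kidney, that without KO replicate 2.

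*Cyp2e1*, which oxidizes ethanol and acetone and is abundant in liver and fat, had opposite orders in the 2 models. Its level was 8.15, 5.57 and 11.2 CPM in LIN28B controls, 2.79, 3.43 and 1.46 CPM in LIN28B Wt1, 1.95, 0.624 and 1.34 CPM in *let-7* WT and 2.71, 5.61 and 6.77 CPM in *let-7* KO kidneys. Mutants lay below all controls in the LIN28B model and above all controls in the *let-7* model. It fell 3.23-fold in LIN28B Wt1 kidneys (log2 fold change -1.69 ± 0.46 SE, adjusted p = 0.1) and was 3.83-fold higher in *let-7* KO kidneys without passing the threshold (log2 fold change 1.94 ± 0.71 SE, adjusted p = 0.388). The call in LIN28B Wt1 kidneys was lost without control replicate 1, control replicate 3 or LIN28B Wt1 replicate 1. The difference between the models was -3.65 ± 0.81 SE on the log2 scale and was called (adjusted p = 0.313). The highest *Cyp2e1* level was in LIN28B control replicate 3, the control with the lowest fat genes, and the next highest in replicate 1, with higher fat genes. Without replicates 1 and 2 the log2 fold change in LIN28B Wt1 kidneys was -2.11 and was no longer called. The part of fat genes in the *Cyp2e1* result was not tested.

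*Cyp4v3*, a fatty acid hydroxylase, was at 7.17, 7.38 and 5.15 CPM in LIN28B controls and 1.52, 3.43 and 1.18 CPM in LIN28B Wt1 kidneys, without overlap. It fell 3.21-fold (log2 fold change -1.68 ± 0.51 SE, adjusted p = 0.127), a call that was lost in 5 of the 6 fits that leave out 1 kidney, all but that without LIN28B Wt1 replicate 2. In *let-7* WT it was at 6.19, 4.13 and 5.95 CPM and in *let-7* KO kidneys at 3.87, 1.07 and 2.83 CPM (log2 fold change -1.07 ± 0.61 SE, adjusted p = 0.556). *Cyp4f16*, the most abundant of the other Cyp4 members, was not called (log2 fold changes of -0.08 and 0.16).

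No Cyp2c, Cyp2d, Cyp3, sterol, retinoid or steroid member was called in either model as fitted alone. *Cyp2d26*, the leading Cyp2d member, stood at 80.1, 68 and 60.1 CPM in LIN28B controls and 43.3, 48.6 and 21.2 CPM in LIN28B Wt1 kidneys (log2 fold change -0.88 ± 0.28 SE, adjusted p = 0.146), which did not overlap but missed the threshold. With litter as a block it was called lower (log2 fold change of -0.95, adjusted p = 0.105), as was its difference between the models (-1.17, adjusted p = 0.577), and with no filter both were called too (-0.88 and -1.08). Its log2 fold change in *let-7* KO kidneys was 0.19. *Cyp2s1* (log2 fold changes of -0.28 and -0.55), *Cyp20a1* (-0.41 and -0.67), *Cyp2c44* (0.83 and -2.38) and *Cyp3a13* (-1.46 and -1.63) were not called, the last pair at levels of at most 3.96 CPM. Of the 4 sterol and bile acid enzymes kept, the oxysterol 7-alpha-hydroxylases *Cyp7b1* and *Cyp39a1* had nearly equal mean levels over the 12 kidneys, 6.89 and 6.86 CPM per kb, and *Cyp39a1* was the higher in *let-7* WT kidneys (8.21 against 4.75 CPM per kb). *Cyp7b1* had log2 fold changes of 0.04 with LIN28B and 0.44 in *let-7* KO kidneys. *Cyp39a1*, named after its values were seen, stood at 25.3, 27.3 and 22.7 CPM in *let-7* WT and 19.9, 11.5 and 12.7 CPM in *let-7* KO kidneys, without overlap but not called (log2 fold change -0.77 ± 0.29 SE, adjusted p = 0.392), and its log2 fold change with LIN28B was 0.04.

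The retinoic acid hydroxylases were low and variable. *Cyp26a1* was at 1.62, 0.46 and 2.91 CPM in LIN28B controls, 2.81, 2.15 and 5.37 CPM in LIN28B Wt1, 0.463, 1.28 and 0.626 CPM in *let-7* WT and 0.532, 0 and 2.34 CPM in *let-7* KO kidneys. *Cyp26b1* was at 2.51, 2.44 and 11.3 CPM in LIN28B controls, 5.61, 3.64 and 10.8 CPM in LIN28B Wt1, 0.857, 1.56 and 2.84 CPM in *let-7* WT and 3.01, 2.58 and 2.72 CPM in *let-7* KO kidneys. The LIN28B groups overlapped for both genes, and neither gene was called in either model, with log2 fold changes between 0.26 and 1.05. Among 10 genes fixed for retinoid synthesis and carriage 2 rose in LIN28B Wt1 kidneys, and none fell in either model. The retinoic acid-binding protein *Crabp1* rose in both, with log2 fold changes of 1.36 with LIN28B (adjusted p = 0.0768) and 1.95 in *let-7* KO kidneys (adjusted p = 0.358). *Crabp2* rose in LIN28B Wt1 kidneys (1.94, adjusted p = 0.0115).

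The steroid hormone enzymes were close to absent. *Cyp11a1*, the mitochondrial enzyme that cleaves the cholesterol side chain, was kept on 0.0163, 0.971 and 1.13 CPM in LIN28B Wt1 kidneys and on 1.23, 0 and 0 CPM in *let-7* WT and 1.86, 0 and 0 CPM in *let-7* KO kidneys, and it was at 0 in all LIN28B controls. The count filter removed it in both models. With no filter it was called higher in LIN28B Wt1 kidneys (edgeR, adjusted p = 0.137), as it was without LIN28B Wt1 replicate 1 (adjusted p = 0.152), whereas it missed the threshold among genes with at least 10 counts in 3 of all kidneys (adjusted p = 0.146). *Cyp11b2* had no count, and *Cyp17a1*, *Cyp19a1*, *Cyp21a1* and *Cyp11b1* held at most 4, 1, 13 and 27 counts in any kidney. The adrenal gland, which lies on the kidney, is the main site of these enzymes, and the summed level of 6 adrenal cortex markers, 32.4 to 69.0 CPM over the 12 kidneys, came mostly from *Akr1b7*, at 26.9 to 66.4 CPM, which is not limited to the adrenal. *Hsd3b1*, *Nr5a1* and *Mc2r* were at most 0.795, 1.27 and 1.77 CPM, and *Star* and *Mrap* at most 4.88 and 5.75 CPM. Summed over 6 adrenal medulla markers, LIN28B Wt1 kidneys held 3.19 to 4.62 CPM and their controls 0.388 to 2.22 CPM, without overlap. Of the 2 medulla markers tested there, 1 was called higher. The medulla sums were 0.703 to 5.47 CPM in *let-7* WT and 0.898 to 3.74 CPM in *let-7* KO kidneys. The part of adrenal tissue in the *Cyp11a1* levels was not tested.

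**Figure D4:**
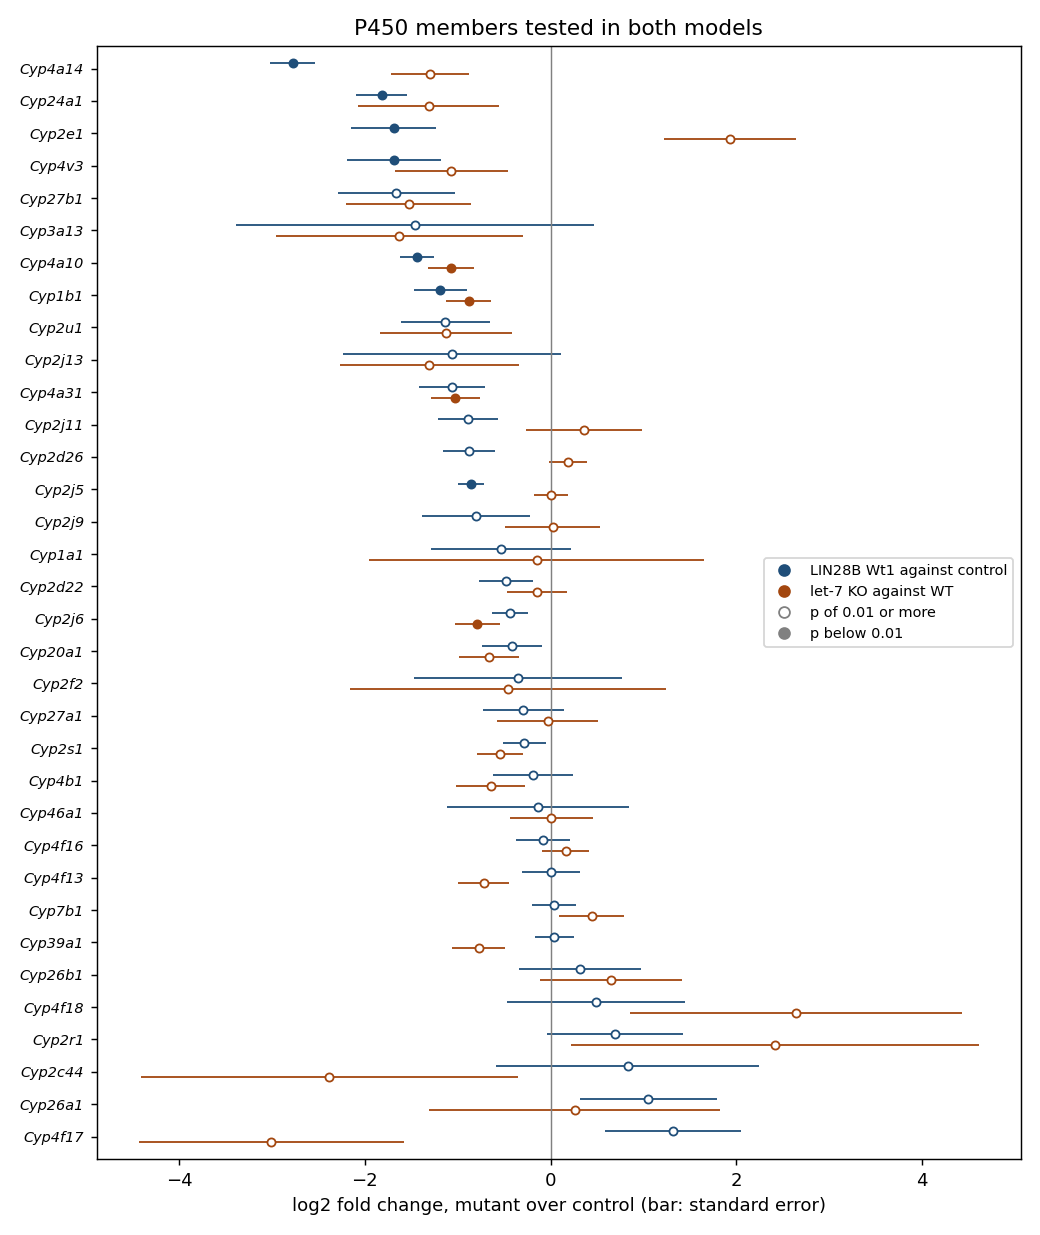
Log2 fold change with its standard error for the 34 P450 members tested in both models, LIN28B Wt1 against control in blue and *let-7* KO against WT in orange, ordered by the LIN28B value. Filled points passed p below 0.01, all of them lower in the mutant, and *Cyp2e1* and *Cyp4f17* lie far apart on opposite sides of 0 in the 2 models.

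Of the 34 members tested in both models, 18 lay below 0 in both, 5 above 0 in both and 11 on opposite sides. The members called lower in both were *Cyp4a10* and *Cyp1b1*. None of these counts over both models was computed for all genes. The 2 comparisons share no kidney. Tested as a difference between the models in 1 fit of all 12 kidneys, 2 of 43 members (4.65%), *Cyp2e1* and *Cyp2j5*, were lower in the LIN28B model relative to the *let-7* model, where 1.04% of all 16598 genes tested were, and no member was higher, where 0.512% of all genes were. None passed an adjusted p of 0.05 in edgeR's test. DESeq2 called 4 lower and 2 higher at 0.01, and 2 lower and 1 higher at an adjusted p below 0.05. At an unadjusted p below 0.05 edgeR found 4 lower and 3 higher. These DESeq2 and looser counts also lack an all-gene share. The count called was 5 without *let-7* KO replicate 1 and 4 without LIN28B Wt1 replicate 2 or *let-7* WT replicate 1.

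The 2 control groups differ in strain, colony and experiment together, which cannot be told apart. Set against LIN28B controls, *let-7* WT kidneys were lower for 2 of 37 members (5.41%), where 1.97% of all 15850 genes were lower, and for none higher, where 2.82% were. At an unadjusted p below 0.05, 6 were lower and 4 higher, and DESeq2 called 4 lower and 0 higher at 0.01, again without an all-gene share. Without *let-7* WT replicate 3 the count called was 6, of which 5 were lower. The 2 members called were *Cyp2e1* (6.34-fold lower; log2 fold change -2.66 ± 0.52 SE, adjusted p = 0.0446) and *Cyp2j11* (3.32-fold lower; log2 fold change -1.73 ± 0.38 SE, adjusted p = 0.0742). *Cyp2j11* was at 22.3, 30.2 and 18 CPM in LIN28B controls and 3.43, 8.94 and 8.86 CPM in *let-7* WT kidneys, without overlap, and at 7.83, 17.7 and 12.5 CPM in LIN28B Wt1 and 2.59, 16.3 and 8.66 CPM in *let-7* KO kidneys. Without the 2 controls with higher fat genes, *Cyp2j11* lost the call (log2 fold change of -1.34).

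P450 enzymes need electrons from a reductase and heme. Of 9 genes of electron transfer and heme synthesis, none was called in LIN28B Wt1 kidneys and 2 fell in *let-7* KO kidneys, *Alas1*, the first enzyme of heme synthesis (-0.62, adjusted p = 0.362), and *Fech*, the last (-0.62, adjusted p = 0.362). Of 18 nuclear receptors and other regulators, *Vdr* was the gene called in both models, and no other was called in either. Among 11 enzymes of eicosanoid metabolism outside the symbol pattern 2 fell in LIN28B Wt1 kidneys, and none was called in *let-7* KO kidneys. The 2 were *Ephx2*, the soluble epoxide hydrolase that degrades the products of Cyp2j and Cyp2c enzymes (-0.79, adjusted p = 0.0869), and *Tbxas1* (-1.15, adjusted p = 0.13). *Tbxas1* encodes thromboxane synthase, itself a P450 that the pattern does not match.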

How the data were processed

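RNA of 12 whole kidneys was sequenced by the authors (SMARTer Ultra Low RNA kit, Illumina HiSeq). The deposited values are raw read counts, listed by gene symbol in a separate file for each kidney. Per the labels, the processing used cutadapt, TopHat2 2.0.9, Bowtie2, SAMtools 0.1.19 and HTSeq on mm10. The annotation, the use of strand and the treatment of shared reads are not given in the sources used here. Groups came from the genotype and strain labels.

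Each model was fitted alone, 3 against 3, in edgeR 4.0.16 (R 4.3.3) with TMM normalization, filterByExpr (minimum count 10, minimum total 15) and the quasi-likelihood F test, with Benjamini-Hochberg adjustment over all genes tested. CPM used TMM factors over the 12 kidneys. Difference between models was an interaction in 1 fit of all kidneys. p-values measure the spread between kidneys of only 2 litters per group. The CPM of 3 counts describes the depth of a library and is not an error interval. The code was tested on simulated counts. Exact permutation tests of 3 against 3 cannot go below 0.1 and were not used for calls. Replicates of a group all differed by more than counting noise.

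Every kept Cyp4a, vitamin D, retinoid and steroid member was named, and in other families the called members and the most abundant one. Members and lists were chosen with earlier results of these data known. The labels give a litter number, and the fits with litter as a block took it as shared between mutant and control kidneys. Deviations of mutant and control kidneys from their own group means were correlated over 11823 genes with a mean of at least 5 CPM. Taking deviations from group means ties the values within and across litter numbers to nearly balance, so each model gives 1 observation. The mean correlation was -0.17 within and 0.21 across litter numbers in the LIN28B model, and -0.04 and 0.05 in the *let-7* model. In neither model was it higher within litter numbers, so shared litters of mutants and controls are not shown. Alternatives were DESeq2 1.42.0, other normalizations and filters, litter as a block, 1 fit of all kidneys, a Y-linked covariate and each kidney left out. A result on the retinoid list in the *let-7* model is not reported here.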

Additional observations from a re-analysis of the deposited data

Results flagged for a closer look

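*Cyp2e1* was picked out because its effects in the 2 models differ, by -3.65 on the log2 scale (interaction in edgeR, adjusted p = 0.313), with every LIN28B Wt1 kidney below and every *let-7* KO kidney above its controls. The call held in all 12 fits that leave out 1 kidney.

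*Cyp2j5* was picked out for the same reason, with a difference of -0.88 (interaction in edgeR, adjusted p = 0.404), also called in all 12 such fits. Without the 2 LIN28B controls with higher fat genes the difference was -0.81 and was no longer called.

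*Cyp4f17* was picked out because its kidneys moved in opposite directions without overlap. Its level was 0.945, 0.575 and 0.995 CPM in LIN28B controls, 2.56, 1.38 and 2.33 CPM in LIN28B Wt1, 1.08, 6.70 and 1.61 CPM in *let-7* WT and 0, 0.497 and 0.688 CPM in *let-7* KO kidneys. The difference was 4.29 on the log2 scale and was not called (interaction in edgeR, adjusted p = 0.714), and neither model called the gene alone (log2 fold changes of 1.32 and -3.00).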

How the results depend on the processing

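Counts of called members moved with the threshold and with single kidneys. No log2 fold change of a member called as reported reversed its direction under any alternative run, and the directions of the other members were not checked. At an adjusted p below 0.05 DESeq2 called 9 members lower in LIN28B Wt1, 2 lower in *let-7* KO and 2 lower between controls. For the difference between the models it called 2 lower and 1 higher, and no all-gene share was computed for these counts. In edgeR's test at that threshold the counts were 4 in LIN28B Wt1, 0 in *let-7* KO, 1 between controls and 0 for the difference. Without the 2 LIN28B controls with higher fat genes, an alternative chosen after seeing the data that leaves 1 control assumed to vary like the other group, they were 3 in LIN28B Wt1 (*Cyp4a10*, *Cyp4a14* and *Cyp24a1*) and 1 for the difference, with *Cyp2j5* (-0.79) and *Cyp4v3* (-1.32) among the 4 lost in LIN28B Wt1 kidneys. 1 fit of all kidneys called 7 members in *let-7* KO, of which 6 were lower, and lost *Cyp24a1* and *Cyp4v3* in LIN28B Wt1. DESeq2 called 4 members between controls and 6 for the difference, and no filter called 4 for the difference, adding *Cyp2d26* and *Cyp4a14*. Leaving out each kidney gave from 4 to 9 members in LIN28B Wt1, 1 to 5 in *let-7* KO, 2 to 6 between controls (6 without *let-7* WT replicate 3) and 2 to 5 for the difference (5 without *let-7* KO replicate 1). The low LIN28B count of 4 came without control replicate 1. In *let-7* KO the count was 1 without WT replicate 1 or KO replicate 3 and 2 without WT replicate 3. *Cyp4a10* was called in all 6 such fits of each model, and *Cyp4a14*, *Cyp24a1* and *Cyp2j5* in all 6 of LIN28B Wt1. *Cyp1b1* was called in 5 of 6 in LIN28B Wt1 and 1 of 6 in *let-7* KO, *Cyp2e1* in 3 of 6, *Cyp4a31* in 3 of 6 and *Cyp2j6* in 2 of 6. Litter as a block called 10 members in LIN28B Wt1, adding *Cyp2d26*, *Cyp27b1* and *Cyp4a31*, 3 in *let-7* KO, losing *Cyp2j6*, and 3 for the difference, adding *Cyp2d26*, and kept the other calls. Members near the limit of 10 counts, such as *Cyp2a4* and *Cyp2t4*, are shallow, and whether a difference could be detected at that depth was not tested.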
